A study of Sus scrofa with 10 samples.

Results

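Tumour necrosis factor (TNF), interleukin 1 alpha (IL1A), interleukin 6 (IL6), the chemokine CXCL8 (interleukin 8, listed under IL8 and CXCL8, which were joined) and the CC chemokines CCL2 and CCL4 were examined in the oviduct of inseminated and non-inseminated sows. Every feature of the array paired with one of these gene names was taken, which gave 12 of 45220 features for 6 of 4559 genes. IL6 had 3 features, TNF, IL1A, CXCL8 and CCL2 had 2 each, and CCL4 had 1. The tissue was the whole wall at the ampullary-isthmic junction, where fertilization takes place in the pig, from 5 inseminated and 5 non-inseminated sows with 1 single-colour array per sow. Inseminated sows received diluted fresh semen of fertile boars in spontaneous oestrus. Non-inseminated sows were left without semen. Both groups were cyclic Landrace x Large White hybrids, weaned at the same time, without hormonal induction, and their oviducts were removed under anaesthesia once ovulation had been seen by ultrasonography. The oviducts were not flushed, so that cells and gametes of the lumen may be part of the samples, and contact with semen and with early zygotes cannot be told apart in the inseminated group. Ages were not given in the sources used here.

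TNF and IL1A are alarm cytokines, released early by macrophages and by epithelial cells under stress. They bind receptors that activate the transcription factor NF-κB, which in turn induces IL6, CXCL8 and CCL2. CXCL8 draws neutrophils out of the blood, CCL2 draws monocytes, and CCL4 draws monocytes, T cells and NK cells. In the sow, semen is known to bring leucocytes into the uterus, and the sperm that reach the oviduct are few.

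Values are normalized log2 intensities, in which a difference of 1 is a doubling. Differences are the inseminated minus the non-inseminated mean. They were tested with limma, adjusted by Benjamini-Hochberg over the 45220 features or the 4559 genes, and for single features and genes also by exact permutation of the sows. With 5 arrays in a group, their number sets the precision. The array of non-inseminated sow AI1061 stood apart, its correlation with the other arrays running from 0.927 to 0.945, where all other pairs had 0.966 to 0.986. Of 8 listed markers of the oviduct's secretory epithelium, all 8 were measured and above the array median, at a mean level of 12.58 to 12.87 in inseminated and 12.02 to 12.89 in non-inseminated sows. Smooth muscle markers, 3 measured of 5 listed, had a wider range, 13.05 to 14.17 in inseminated and 12.23 to 14.48 in non-inseminated sows. Stromal markers, 4 measured of 7 listed, ran from 8.75 to 9.38 and from 8.22 to 9.98 in the same order. The part of tissue composition in the cytokine values was not tested. ACTB and GAPDH, 2 genes used as RT-PCR references by the study, differed by -0.01 each. Of the red cell markers listed, SLC4A1 alone was measured, at 6.63 in inseminated and 7.03 in non-inseminated sows, with sow AI1061 the highest at 7.70.

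Most of the cytokine features lay near the array median in both groups, and that median is itself close to the dim end of the array. The median of all values was 7.09, with the 25th percentile at 6.68, the 75th at 8.50 and the 99th at 15.29. The mean levels of the 12 features ran from 6.71 to 8.57. Of the features, 5 lay above their array medians on average and 7 below. The brighter feature of TNF (feature 33940) was 1.48 above the array median and exceeded it in each of the 10 sows. The brightest feature of IL6 (feature 16569) was 0.85 above it, also in each of the 10 sows. Both features of CXCL8 were 0.33 and 0.38 below it, and in each of them a single sow exceeded the median. The intensity of a feature depends on its probe, so that no order of abundance among the genes was read from these values. In whole tissue, fewer cells of a type and less RNA per cell cannot be told apart.

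**Figure D1:**
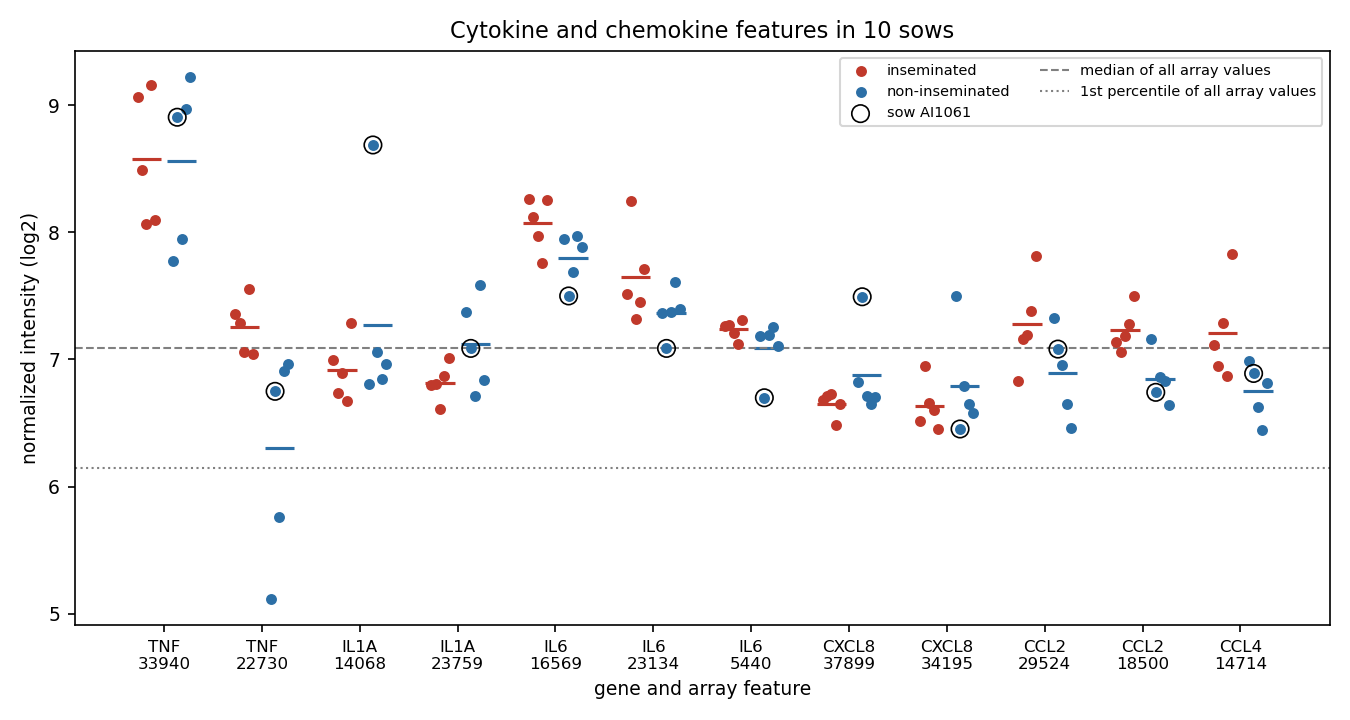
Normalized log2 intensity (vertical axis) of each of the 12 features in each of 10 sows, inseminated (red, left) and non-inseminated (blue, right), with the group mean as a bar, sow AI1061 circled, and the median and the 1st percentile of all array values as dashed and dotted lines. Only TNF feature 22730 separates the groups, with inseminated sows from 7.04 to 7.55 and non-inseminated sows from 5.12 to 6.97.

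No feature of these genes passed adjustment over all features in limma, and the smallest adjusted p among them was 0.9998. Among all 45220 features 0 passed at a rate of 5% (0%), with 1525 at an unadjusted p under 0.05. At that unadjusted threshold 3 of the 12 features were higher in inseminated sows and 0 lower, where 2.08% of all features were higher and 1.3% lower. These 3 were the dimmer TNF feature, a CCL2 feature and the CCL4 feature. Without sow AI1061 the count was also 3, beside 2.98% of all features higher and 4.02% lower. Of the 12 features 8 had a higher and 4 a lower mean in inseminated sows, with a median difference of 0.21, where 50.3% of all features had a higher and 49.7% a lower mean. For gene values, which average a gene's features, 4 of 6 had a higher and 2 a lower mean, where 46.8% and 53.2% of all genes did. At an unadjusted p under 0.05, CCL2 and CCL4 were higher and 0 of the 6 genes lower, beside 1.47% and 1.12% of all genes. With array weights, in which sow AI1061 counted least, the genes at this threshold were TNF and CCL4, and CCL2 had an unadjusted p of 0.101 from limma and a difference of 0.27. Without sow AI1061 the count among the 6 genes was also 2, beside 2.33% of all genes higher and 5.42% lower. The genes were chosen with earlier results of these data known, and the study itself selected TNF on these samples, so that these shares are descriptions.

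**Figure D2:**
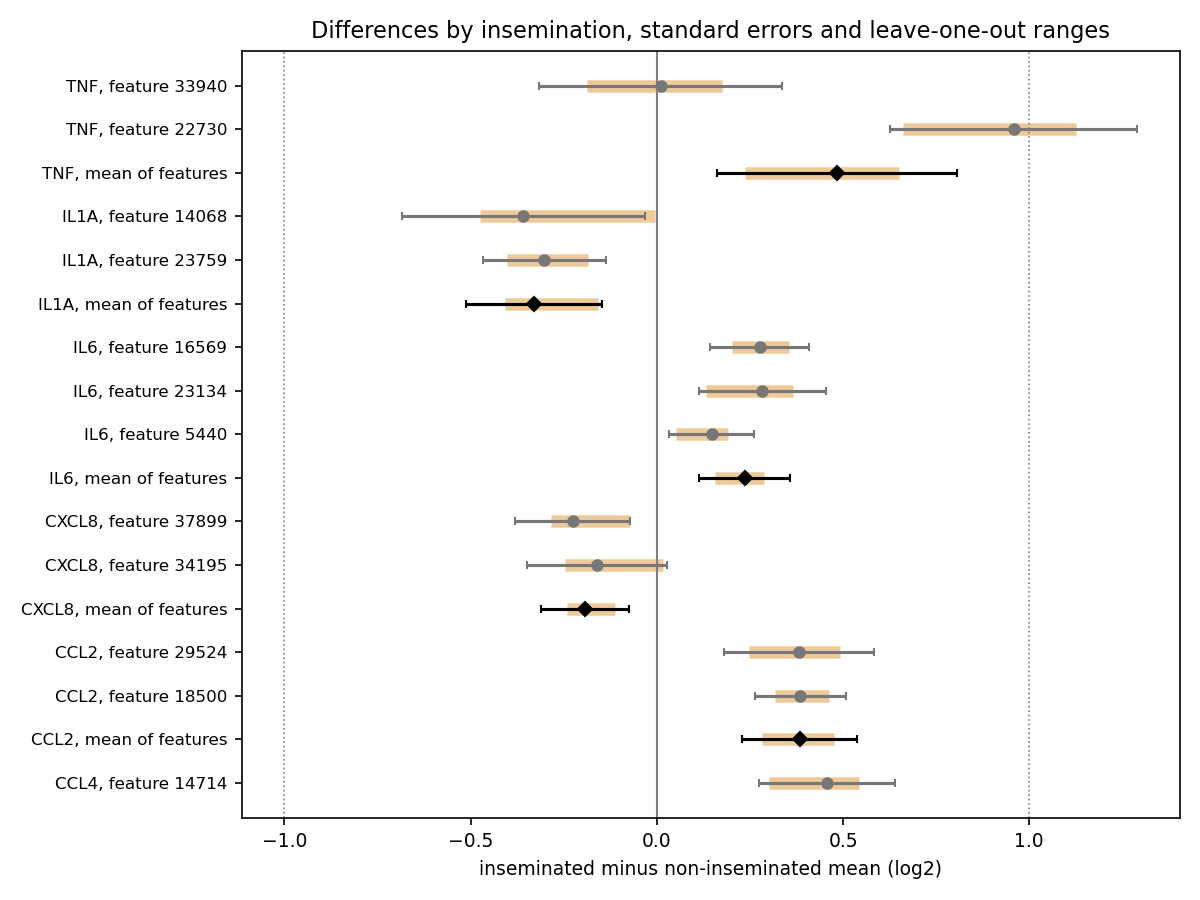
Difference between inseminated and non-inseminated sows (horizontal axis, log2) for single features (circles) and for gene values averaged over features (diamonds; CCL4 has 1 feature), with the standard error as a line and, as an orange band, the range after leaving out each of 10 sows in turn. Dotted lines mark a 2-fold difference, which none reached, and TNF feature 22730 lies nearest to it at 0.96.

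TNF was read differently by its 2 features, both annotated to the same transcript. In the dimmer feature (feature 22730) inseminated sows AI943, AI993, AI837, AI1059 and AI792 had 7.36, 7.28, 7.06, 7.55 and 7.04, against 5.12, 6.75, 5.76, 6.91 and 6.97 in non-inseminated sows AI788, AI1061, AI991, AI696 and AI992. Each inseminated sow was above every non-inseminated sow, a separation shared by 0.462% of all features with inseminated sows higher. The difference was 0.96 (standard error 0.33), or 1.94-fold, with an adjusted p of 0.9998 from limma. By exact permutation of this feature alone the two-sided p was 0.00794, the smallest that 5 sows against 5 allow. The study had selected TNF on these same sows, also at 1.94-fold, with its own cut-offs on fold and false discovery rate. That is the fold of this feature alone, where the mean of both features gave 1.40-fold here. The exact permutation p therefore describes a difference already chosen and is no independent test.

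Non-inseminated sows AI788 and AI991 lay far below the others. Their values lay under 6.14, the 1st percentile of all array values, and only 0.16% and 0.39% of the features on their arrays were lower. The other 3 non-inseminated sows were between 6.75 and 6.97, just under the lowest inseminated sow at 7.04. Without sow AI788 the difference was 0.66, and over all omissions of a single sow it ran from 0.66 to 1.12. Of all 45220 features, 12 had these same 2 sows, and no other, under the 1st percentile.

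The brighter TNF feature (feature 33940) gave no such separation. Inseminated sows AI943, AI993, AI837, AI1059 and AI792 had 9.06, 8.49, 8.07, 9.16 and 8.10, against 7.77, 8.91, 7.95, 8.97 and 9.22 in non-inseminated sows AI788, AI1061, AI991, AI696 and AI992. The groups overlapped over most of their range, and the highest and the lowest sow were both non-inseminated. The difference was 0.01 (standard error 0.33, exact permutation test, two-sided, p = 0.992), with a 95% interval from -0.71 to 0.73 in limma. Sows AI788 and AI991 were the lowest here too, and over the 10 sows the 2 features had a Pearson correlation of 0.67.

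The mean of both features, the gene value, was 7.92 ± 0.36 in inseminated and 7.43 ± 0.73 in non-inseminated sows (SD, n = 5 each). TNF as a gene differed by 0.48 (standard error 0.32, adjusted p = 0.999 from limma), by 0.24 without sow AI788, and by 0.01 when the feature of the highest mean stood for the gene. It was 0.65 without sow AI992, and 0.77 with arrays weighted by their quality, where the unadjusted p from limma was 0.0270 and the adjusted p 0.692. Whether the probes bind different parts or forms of the transcript was not tested, since their sequences were not analysed here.

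**Figure D3:**
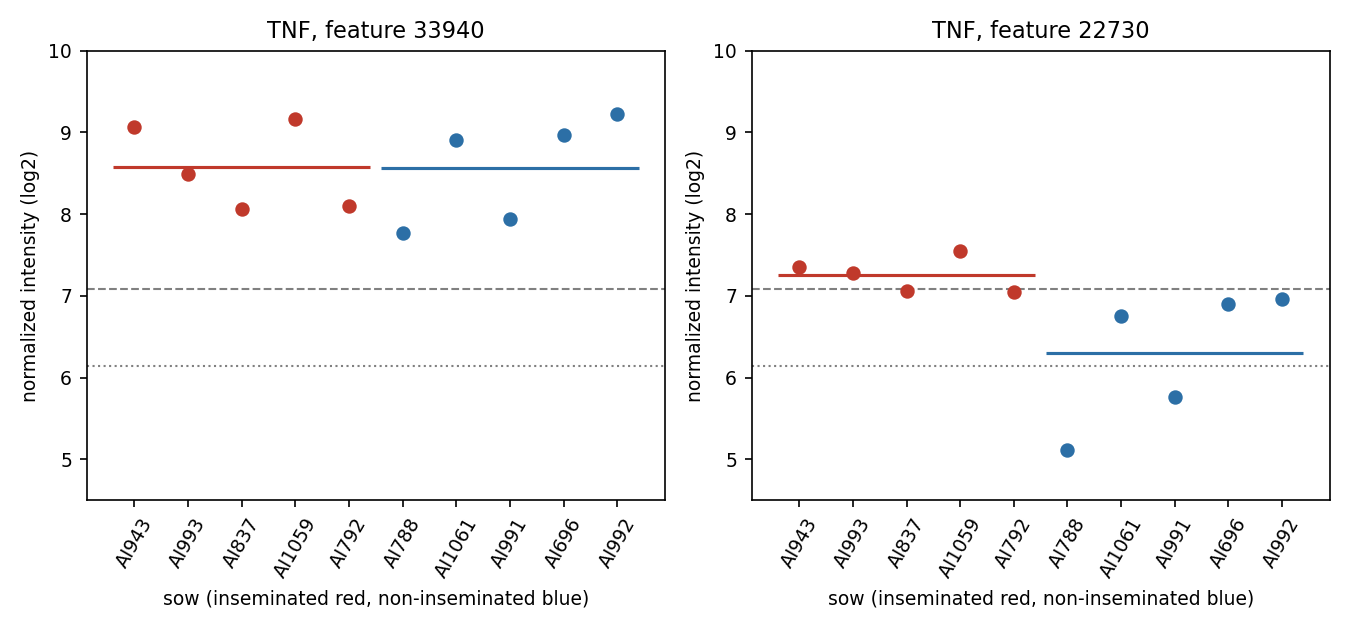
Normalized log2 intensity (vertical axis) of TNF feature 33940 (left panel) and TNF feature 22730 (right panel) in each sow (horizontal axis), inseminated in red and non-inseminated in blue, with group means as solid lines and the median and 1st percentile of all array values as dashed and dotted lines. Sows AI788 and AI991 are the lowest in both panels, and the group means are 8.58 and 8.56 on the left and 7.26 and 6.30 on the right.

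IL1A, the membrane-bound and intracellular form of interleukin 1, was lower in mean in inseminated sows, with features that did not vary together. Feature 14068 was paired with IL1A by its symbol alone, without a named transcript, whereas feature 23759 was tied to a transcript. In feature 14068 inseminated sows AI943, AI993, AI837, AI1059 and AI792 had 6.99, 6.73, 6.89, 6.67 and 7.29, against 6.81, 8.69, 7.06, 6.85 and 6.97 in non-inseminated sows AI788, AI1061, AI991, AI696 and AI992. A single sow, AI1061, stood far above all others, the next being at 7.29. The difference of -0.36 (standard error 0.33) was -0.0047 without that sow.

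In feature 23759 the highest values belonged to non-inseminated sows AI696 at 7.59 and AI788 at 7.37, with the other 8 sows between 6.61 and 7.09. Its difference was -0.30 (standard error 0.16), -0.31 without sow AI1061 and -0.19 without sow AI696. The features had a Pearson correlation of 0.09 over the 10 sows, and of -0.13 without sow AI1061. IL1A as a gene was 6.87 ± 0.17 in inseminated and 7.20 ± 0.41 in non-inseminated sows (SD, n = 5 each). This difference of -0.33 (standard error 0.18, exact permutation test, two-sided, p = 0.0873) did not pass (adjusted p = 0.999 from limma) and was -0.16 without sow AI1061.

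IL6, which drives the acute phase response in the liver and the maturation of B cells, was higher in mean in inseminated sows in each of its 3 features. In the brightest (feature 16569) inseminated sows AI943, AI993, AI837, AI1059 and AI792 had 8.26, 8.12, 7.97, 7.76 and 8.25, against 7.95, 7.50, 7.69, 7.97 and 7.88 in non-inseminated sows AI788, AI1061, AI991, AI696 and AI992. Inseminated sows AI943, AI993 and AI792 exceeded every non-inseminated sow, sows AI837 and AI696 were level, and inseminated sow AI1059 lay among the non-inseminated ones. The difference was 0.28 (standard error 0.13, exact permutation test, two-sided, p = 0.0635).

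The other IL6 features differed by 0.28 (feature 23134, standard error 0.17) and 0.15 (feature 5440, standard error 0.11). The first was 0.13 without sow AI993 and the second 0.050 without sow AI1061. In feature 23134 sow AI993 was the highest at 8.25, and the next sow was at 7.71. Unlike those of IL1A, the IL6 features varied together, with Pearson correlations of 0.64, 0.81 and 0.63 between pairs over the 10 sows. These were 0.49, 0.77 and 0.57 without sow AI1061. That sow was the lowest in all 3 features, at 7.50, 7.09 and 6.70. IL6 as a gene was 7.65 ± 0.18 in inseminated and 7.42 ± 0.19 in non-inseminated sows (SD, n = 5 each), a difference of 0.24 with a 95% interval from -0.03 to 0.50 in limma. Without sow AI1061 it was 0.15.

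CXCL8, the neutrophil attractant, lay low on both of its features and did not separate the groups. In feature 37899 inseminated sows lay between 6.49 and 6.73 and non-inseminated sows between 6.65 and 7.49, the highest being sow AI1061. In feature 34195 inseminated sows lay between 6.45 and 6.95 and non-inseminated sows between 6.45 and 7.50, the highest being sow AI788. The highest sow was therefore not the same in the 2 features. The features had a Pearson correlation of -0.08 over the 10 sows, and of 0.64 without sow AI1061.

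CXCL8 as a gene was 6.64 ± 0.12 in inseminated and 6.84 ± 0.23 in non-inseminated sows (SD, n = 5 each). Its difference of -0.19 (standard error 0.12) did not pass (adjusted p = 0.999 from limma), with a 95% interval from -0.46 to 0.07, and was -0.11 without sow AI788. In both features 0 inseminated sows were above the array median, against 1 non-inseminated sow in each. The 9 neutrophil markers measured, of 9 listed, had a mean level of 6.89 to 7.08 in inseminated and 6.82 to 7.26 in non-inseminated sows, the highest again being sow AI1061. Of these 9, 3 lay above the median level of all features, among them MMP9, a granule protease, at 7.92 in inseminated and 8.11 in non-inseminated sows, and CXCR2, a receptor of CXCL8, at 7.44 and 7.43 in the same order. The other 6 lay below it, among them the cytosolic S100A8 at 6.78 in inseminated and 6.80 in non-inseminated sows and the granule enzyme MPO at 6.62 in inseminated and 6.47 in non-inseminated sows.

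CCL2, the monocyte chemoattractant, was higher in mean in inseminated sows in both features, and these agreed across sows. In feature 18500 inseminated sows AI943, AI993, AI837, AI1059 and AI792 had 7.14, 7.06, 7.19, 7.28 and 7.50, against 7.16, 6.74, 6.86, 6.83 and 6.64 in non-inseminated sows AI788, AI1061, AI991, AI696 and AI992. The groups overlapped through sow AI788 alone, which exceeded 2 inseminated sows. The difference was 0.39 (standard error 0.12, exact permutation test, two-sided, p = 0.0238), and the unadjusted p from limma was 0.00895.

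In feature 29524 inseminated sows AI943, AI993, AI837, AI1059 and AI792 had 6.83, 7.16, 7.20, 7.38 and 7.82, against 7.33, 7.08, 6.96, 6.65 and 6.46 in non-inseminated sows AI788, AI1061, AI991, AI696 and AI992. The overlap was wider, since sow AI943 lay below 3 non-inseminated sows. The difference of 0.38 was nearly that of the other feature, with a standard error of 0.20, and was 0.25 without sow AI792. The features had a Pearson correlation of 0.85 over the 10 sows. As a gene CCL2 was 7.26 ± 0.26 in inseminated and 6.87 ± 0.26 in non-inseminated sows (SD, n = 5 each), 1.30-fold higher (difference 0.38, standard error 0.15, adjusted p = 0.999 from limma). Omission of single sows gave 0.28 without inseminated sow AI792 to 0.48 without non-inseminated sow AI788, and the unadjusted p from limma stayed under 0.05 in 6 of 10 omissions, those of sows AI1059, AI792, AI696 and AI992 being the exceptions.

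CCL4, which draws monocytes and lymphocytes, had 7.11, 6.95, 7.28, 6.87 and 7.83 in inseminated sows AI943, AI993, AI837, AI1059 and AI792, against 6.98, 6.89, 6.63, 6.44 and 6.81 in non-inseminated sows AI788, AI1061, AI991, AI696 and AI992. Inseminated sow AI792 was the highest, the next being at 7.28, and sows AI993 and AI1059 lay within the range of the non-inseminated sows. CCL4 averaged 7.21 ± 0.38 in inseminated and 6.75 ± 0.22 in non-inseminated sows (SD, n = 5 each), 1.37-fold higher (difference 0.46, standard error 0.18). The exact permutation test gave a two-sided p of 0.0397, and the adjusted p from limma was 0.9998 over all features. Without sow AI792 the difference was 0.30, and the unadjusted p from limma was above 0.05 in the omissions of sows AI837, AI792, AI991 and AI696. Only 1 feature read CCL4, so that no other probe could be set beside it.

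CCL2 and CCL4 were the pair of genes that varied most alike over the sows. Their Pearson correlation was 0.77 (permutation p = 0.0106) and Spearman's rho 0.72 (permutation p = 0.0240). Adjusted over the 15 pairs of these 6 genes, the values were 0.159 and 0.288, so that the relation did not pass. Without sows AI792 and AI992, the farthest from the median of CCL2, it was 0.63, and on deviations from the group means 0.62. Inseminated sow AI792 was the highest in both genes. No pair passed after adjustment, and the next largest correlation was that of TNF with CXCL8 at -0.67 (permutation p = 0.0333), which was -0.28 without sows AI788 and AI991, -0.59 on deviations from the group means and -0.78 without sow AI1061.

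**Figure D4:**
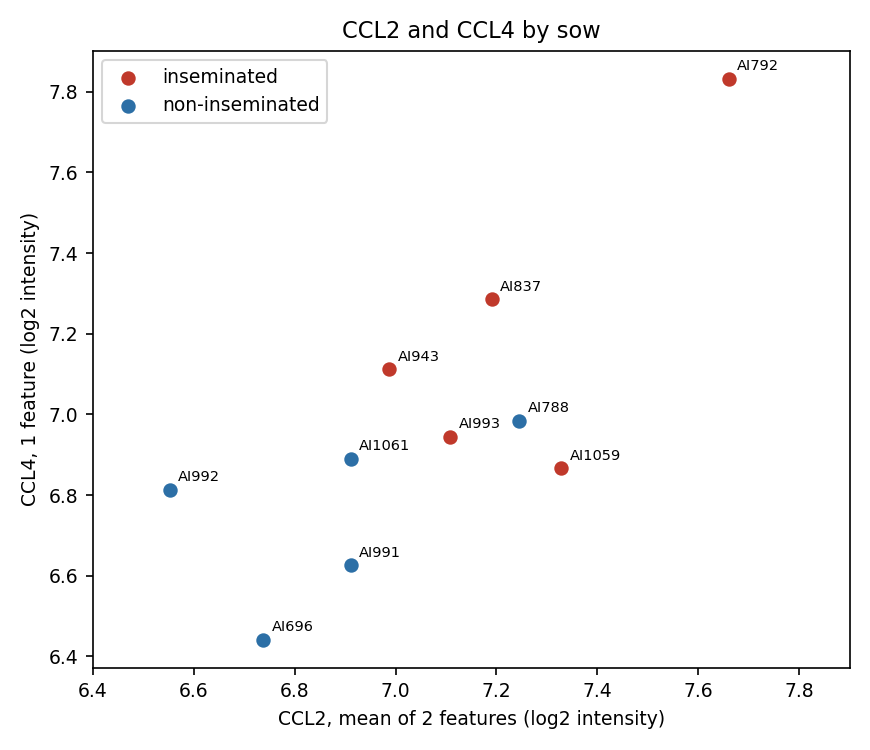
CCL4 (vertical axis, 1 feature) against CCL2 (horizontal axis, mean of 2 features), both as normalized log2 intensity, with 1 point per sow, inseminated in red and non-inseminated in blue. Sow AI792 lies at the top right with 7.83 for CCL4 and 7.66 for CCL2, and the correlation over the 10 sows is 0.77.

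Lymphocyte markers, like the CC chemokines, had higher means in inseminated sows. Of 8 listed markers of T and NK cells 7 were measured, all 7 with a higher mean. Adjusted over all genes 0 passed, as did 0 of all 4559 genes (0%). Only 3 of the 7, CD3E, GZMB and KLRK1, lay above the median level of all features. The mean level of all 7 markers ran from 7.56 to 8.09 in inseminated and from 7.37 to 7.63 in non-inseminated sows, or to 7.54 without sow AI1061, and sow AI792 was the highest. Their median difference was 0.14, and 46.8% of all genes had a higher mean. The largest differences were those of KLRK1, the activating receptor NKG2D, at 0.61 and GZMB, the granzyme of cytotoxic cells, at 0.41, and CD8A had the smallest at 0.080. KLRK1 had an SD of 0.81 among inseminated and 0.18 among non-inseminated sows. GZMB was the brightest of the 7, at 10.94 in inseminated and 10.53 in non-inseminated sows. Of 8 listed macrophage and monocyte markers 4 were measured, 3 higher and 1 lower in mean, at a mean level of 7.68 to 8.25 in inseminated and 7.73 to 8.28 in non-inseminated sows. The part of these cells in the CCL2 and CCL4 values was not tested.

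The genes whose pattern over the 10 sows was most like that of each cytokine were sought among the 3052 other genes above the median level, with Pearson's correlation as the measure. For CCL2 these were IGF2BP2 (0.89), UBD (0.89) and IFI30 (0.85), and for CCL4 PIGR (0.87), KLRK1 (0.87) and APBB1IP (0.85). UBD and IFI30 are induced by interferon gamma, and PIGR carries immunoglobulins across the epithelium. All 6 were highest in sow AI792. For TNF they were PTGR1 (0.92), GUSB (0.89) and GPRC5B (0.88), each lowest in sow AI788 or AI991.

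For IL6 they were PDZD11 (0.93), M6PR (0.93) and SPTLC2 (0.91), each highest in sow AI993 and lowest in sow AI1061. For IL1A they were CPNE3 (0.92), SECISBP2L (0.91) and GNA11 (0.90), each highest in sow AI1061, and without that sow the correlations were 0.72, 0.70 and 0.44. For CXCL8 they were LATS1 (0.88), CRAT (0.85) and MLXIPL (0.83), each highest in sow AI788. Each set was the top of many candidates over 10 sows, and the correlations are descriptions.

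The genes through which these cytokines act did not pass between the groups, where 0 of all 4559 genes passed (0%). Of 19 listed receptors and adaptors of TNF, IL1 and IL6, 13 were measured, of which 5 had a higher and 8 a lower mean, and their median was -0.03 (-0.08 without sow AI1061), against -0.01 for all genes. RIPK1, the kinase below the TNF receptor, had 7.83 in inseminated and 8.02 in non-inseminated sows, IL6R, the receptor of IL6, had 6.77 and 6.87, and STAT3, its signal transducer, had 7.35 and 7.43 in the same order. TNFRSF1A, the main TNF receptor, given here outside the naming rule, differed by -0.03. Of 8 listed chemokine receptors 4 were measured, 3 higher and 1 lower with a median of 0.09 (2 and 2 without sow AI1061), among them CCR1 at 0.22, CCR3 at 0.17 and CCR2, the receptor of CCL2, at -0.03. Of 13 genes of NF-κB and its regulators 8 were measured, 5 higher and 3 lower with a median of 0.03 (-0.061 without sow AI1061), among them the kinases CHUK at -0.22, IKBKB at 0.12 (-0.045 without sow AI1061) and MAP3K7 at 0.06.

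Most related cytokines had a higher mean in inseminated sows, and about as many targets of inflammation had a higher as a lower one. Of 23 other inflammatory cytokines and chemokines listed, 21 were measured, of which 17 had a higher and 4 a lower mean, where 46.8% of all genes had a higher mean. The median of the list was 0.11 (0.20 without sow AI1061), against -0.01 (-0.02) for all genes. As in each of these lists, 0 passed over all genes, and 0 of all 4559 genes did (0%). The lymphocyte attractant CCL19 differed by 0.26, the inflammasome product IL18 by 0.49 and the IL6 family member LIF by 0.63, with unadjusted p-values from limma of 0.0882, 0.114 and 0.118. LIF had an SD of 0.95 among inseminated and 0.073 among non-inseminated sows. IL1B, the secreted form of interleukin 1, given here outside the naming rule, differed by 0.18, opposite in sign to IL1A. Several genes of the list lay below the median of all values, among them IL1B at 6.90 in inseminated and 6.72 in non-inseminated sows. Of 17 inflammatory target genes 11 were measured, 5 higher and 6 lower with a median of -0.03, among them the endothelial selectin SELP at 0.21, the nitric oxide synthase NOS2 at 0.07 and the matrix protease MMP3 at -0.09.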

How the data were processed

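RNA of each sow was labelled with Cy3 and hybridized to a porcine Agilent array, and spot intensities came from GenePix images. The deposited values are log2 intensities that the authors background-corrected by normexp with an offset of 10 and quantile-normalized in limma, whose version is not given in the sources used here. Background values were not analysed here, so that detection above background is unknown, and depth does not apply to arrays. Control spots are not marked, and all 45220 features were tested.

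Features were named by the annotation of the platform, with symbols updated by accession through the Sscrofa11.1 reference for 6055 features, of which 446 changed. In all 10290 features had 1 symbol and 34930 none. No coordinates are given, since no build is named for the array.

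Groups came from the sample labels. Sows carry their label names, in which AI stands before every number in both groups. The fits used limma 3.58.1 under R 4.3.3, checked by exact permutation over sows. Correlations used 100000 permutations in numpy 2.4.6. The fits were tested on simulated data. The genes, lists and tests were chosen with earlier results of these data known. The text names the 6 genes with all features, in each pathway list the 3 genes of smallest unadjusted p, and the 3 genes most correlated with each of the 6. ACTB and GAPDH, 2 further pathway genes and single cell type markers are also named, the last 2 kinds chosen after their values were seen. Alternatives covered scaling, a filter below the 40th percentile, variance models, array weights, the choice of feature and omission of each sow. Blood progesterone and the day of surgery were not analysed here.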

Additional observations from a re-analysis of the deposited data

Results flagged for a closer look

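In 3 of 36 checks of 5 sows for a value far from the rest, sow AI1061 of the non-inseminated group stood out (Dixon's test at 95%). Chance alone gives about 1 in 20 such groups when the checks are independent. These checks were not, since gene values average the same features, CCL4 entered as feature and as gene, and all 3 came from 1 array. The count is therefore a description. It had 8.69 in feature 14068 of IL1A, with the next sow of its group at 7.06. It had 7.49 in feature 37899 of CXCL8, with the next at 6.83. In feature 5440 of IL6 it was the lowest with 6.70, the next being at 7.11. The array of this sow also had the lowest correlation with the other arrays, and the lowest mean level of the secretory epithelial markers at 12.02, against 12.58 to 12.87 in inseminated and 12.59 to 12.89 in the other non-inseminated sows. Ciliated epithelial markers were likewise lowest in this sow at 10.30, against 11.14 to 11.53 and 11.38 to 11.94 in the same order. Stromal markers were highest in it at 9.98, against 8.75 to 9.38 and 8.22 to 9.25. The part of tissue composition in these values was not tested.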

How the results depend on the processing

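The 18 differences of genes and features kept their sign in 310 of 315 recomputations, and none passed adjustment (smallest adjusted p = 0.585). Those that turned were the brighter TNF feature, from -0.19 to 0.18 over omissions of a sow, and CXCL8 feature 34195, from -0.25 to 0.017. Omission of a sow moved the count of features passing adjustment between 0 and 1 and of genes between 0 and 1, the 1 arising without non-inseminated sow AI696, and the count at an unadjusted p under 0.05 from 1308 to 3165 features and from 88 to 353 genes, the highest without sow AI1061. That count was 803 features above the 40th percentile of level, which leaves 27132 features, and 2577 features and 313 genes with array weights. Without moderation 0 features passed and 1693 had an unadjusted p under 0.05. Of the 12 features 9 lay above that percentile, and both features of CXCL8 and TNF feature 22730 did not.

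No pair of genes passed in any form. On deviations from the group means the correlation was 0.20 for TNF and IL1A, -0.18 for TNF and IL6, 0.29 for IL1A and CCL2, 0.39 for IL1A and CCL4, -0.067 for IL6 and CCL2, -0.044 for IL6 and CCL4, 0.40 for CXCL8 and CCL2 and 0.19 for CXCL8 and CCL4, each opposite to the plain one. Without the 2 farthest sows it turned to -0.10 for TNF and IL6, 0.12 for IL1A and IL6, 0.36 for IL1A and CCL2 and 0.49 for IL1A and CCL4. Without sow AI1061, a choice made after seeing the data, it turned to 0.14, 0.032 and 0.028 for IL1A with IL6, CCL2 and CCL4 and to 0.0059 for CXCL8 and CCL2, and the median of the NF-κB list turned to -0.061. No paired analysis was possible because the labels number the sows individually. Dim features limit what could be detected.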

Other observations

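The distance between the TNF features, the brighter minus the dimmer within a sow, was looked at after their values were seen and was not tested. It was 1.71, 1.20, 1.01, 1.61 and 1.05 in inseminated sows AI943, AI993, AI837, AI1059 and AI792, against 2.66, 2.16, 2.18, 2.06 and 2.26 in non-inseminated sows AI788, AI1061, AI991, AI696 and AI992. The groups did not overlap in this distance, which averaged 1.32 ± 0.32 in inseminated and 2.26 ± 0.23 in non-inseminated sows (SD, n = 5 each). Of the 1135 genes with 2 features, 1 had a distance that did not overlap between the groups (0.0881%), and this was TNF. The distance was formed from 2 features of which 1 was already seen to separate the groups, so that this share is a description. In the 3 non-inseminated sows whose dimmer feature was not among the lowest array values, the distance was 2.06 to 2.26. The cause of the distance was not tested.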
